A study of Mus musculus with 12 samples.

Results

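The genes described here are 9 genes by which B cells are usually recognised, namely Cd79a, Cd79b, Ms4a1, Pax5, Ebf1, Cd22, Blk, Fcer2a and Cr2, followed in libraries made from sorted CD4+ T cells. They were taken as a list of names, with no threshold on their values, though earlier results of these data were known. All 9 were among the 17523 genes of the expression table, and all 9 were among the 15587 genes that reached 5 normalized counts (read counts scaled for depth) in 3 libraries and were tested. Total RNA was sequenced from 12 libraries of splenic CD4+ T cells of Gr/fr mice on the C57BL/6 strain, which the study's sorting methods describe as 2 to 3 months old. These mice carry a Csf2 (GM-CSF) allele that also makes iCre recombinase and blue fluorescent protein, together with a Rosa26 eYFP allele that iCre switches on for good. YFP therefore marks cells that have expressed Csf2 at some time, and all 4 groups carry both alleles. The groups were naïve cells (CD44−) and effector memory (TEM) cells (CD44hi), and each was sorted further by YFP. Every group (naïve YFP−, naïve YFP+, TEM YFP− and TEM YFP+) had 3 libraries. The labels do not tie a library to an animal, so p-values measure the spread between these libraries, which may be partly technical.

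B cells read antigen through a membrane immunoglobulin, which signals through the paired chains CD79A and CD79B. The transcription factors EBF1 and PAX5 commit lymphoid progenitors to the B lineage and hold that identity in mature B cells. CD21 (encoded by Cr2) raises the response to antigen, and CD22 dampens it. The spleen, from which the CD4+ T cells were sorted, also holds mature B cells, and none of these genes is a standard CD4+ T cell marker.

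The libraries held between 40974124 and 57822269 reads on genes. Cd4 lay between 36078 and 67471 normalized counts and Cd3e between 30224 and 47263, so the defining T cell genes were high in every library. A normalized count is the number of reads on a gene divided by a size factor for the depth of the library. Cd44 had group means of 2831 and 2940 in the naïve fractions and 22014 and 26861 in the TEM fractions. Csf2 lay between 55.9 and 152 normalized counts in TEM YFP+ libraries and at 3.94 or less in all others. Naïve YFP+ replicate 2 had the highest value of its group for 9 of 9 genes. It was also highest for the summed erythroid markers (3675 normalized counts against 79.1 and 898). The same held for the summed macrophage and neutrophil markers (4176 against 570 and 845). Naïve YFP− replicate 2 was the highest of its group for 8 of 9 genes. Its erythroid sum (362 against 48.4 and 160) and its macrophage and neutrophil sum (1100 against 417 and 636) were highest too. Naïve YFP− replicate 1 had the lowest value of its group for 9 of 9 genes, and TEM YFP+ replicate 2 for 8 of 9.

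A pair of promoters is printed because their genes went opposite ways. Against naïve YFP− cells, TEM YFP− cells had less Cd79a and more Cd22. RefSeq promoter windows on GRCm38.p6 were at hand for 6 of the 9 genes (9 windows) and not for Cd79b, Ms4a1 and Blk. Each window spans 250 bases before and 50 bases after a start, and the 250 bases before it are given 5′ to 3′. Capitals mark exact matches to a palindrome bound by EBF1, which is TCCC, then any 2 bases, then GGGA. Only exact matches were searched, so an EBF1 site with other letters would be missed.
Cd79a promoter, chr7:24897247-24897496, plus strand: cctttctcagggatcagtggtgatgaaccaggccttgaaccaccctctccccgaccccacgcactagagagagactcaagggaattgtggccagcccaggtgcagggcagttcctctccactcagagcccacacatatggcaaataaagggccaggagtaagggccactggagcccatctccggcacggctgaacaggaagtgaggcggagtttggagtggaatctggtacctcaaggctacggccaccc
Cd22 promoter, chr7:30879029-30879278, minus strand: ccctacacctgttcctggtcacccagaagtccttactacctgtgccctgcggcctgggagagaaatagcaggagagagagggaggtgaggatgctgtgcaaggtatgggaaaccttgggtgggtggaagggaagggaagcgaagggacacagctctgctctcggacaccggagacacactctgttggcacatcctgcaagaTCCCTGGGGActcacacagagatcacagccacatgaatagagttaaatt
The palindrome, searched on both strands, lay 49 to 40 bases before the start in the Cd22 window and in none of the other 8 windows of the members. It was present in 0.904% of all 32851 promoter windows. The octamer ATTTGCAT, a site for Oct factors that does not overlap the palindrome, was in 0 of the 9 windows and in 1.74% of all windows. These letters describe the windows and were not tied to the expression values.

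The paired signalling chains of the B cell receptor went separate ways. Cd79a (Entrez 12518, chromosome 7 from 24897497 to 24901858) had 207, 442 and 359 normalized counts in naïve YFP− replicates 1, 2 and 3. The naïve YFP+ libraries had 318, 686 and 251. In TEM YFP− cells it was at 45.1, 54.1 and 37.7, below every library of the other groups, and in TEM YFP+ cells at 265, 72.5 and 265. The TEM fractions did not overlap, and the mean was 201 ± 111 in YFP+ against 45.6 ± 8.22 in YFP− libraries (SD, n = 3 each), a 4.40-fold difference. Cd79a thus rose by 1.91 (SE 0.50) on the log2(normalized count + 1) scale, with a Benjamini-Hochberg adjusted p of 0.0383 in limma, a linear model fitted to all 12 libraries and adjusted over all tested genes, where 0.05 or less was called. That call did not hold without any 1 of the 3 TEM YFP− libraries (adjusted p = 0.111, 0.0735 and 0.154 in limma), without TEM YFP+ replicate 1 (0.163) or 3 (0.163), or without naïve YFP− replicate 3 (0.0569). It was lost in 9 of 24 alternative analyses (another scaling, filter, prior count or test, or 1 library left out), whose adjusted p ran from 0.00025 to 0.163. Against naïve YFP− cells, TEM YFP− cells had 7.37-fold less Cd79a (log2 difference −2.80, SE 0.50, adjusted p = 0.000518 in limma), and this call held in all 24 alternatives.

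Cd79b (Entrez 15985, chromosome 11 from 106311341 to 106314562), which encodes the partner chain, did not follow Cd79a. Its values were 126, 256 and 157 in naïve YFP− and 131, 288 and 123 in naïve YFP+ libraries. They were 335, 276 and 420 in TEM YFP− libraries and 266, 167 and 260 in TEM YFP+ libraries. TEM YFP− cells thus had the highest group mean for Cd79b and the lowest for Cd79a, although naïve YFP+ replicate 2 lay above 1 of the 3 TEM YFP− libraries for Cd79b. Cd79b was 1.91-fold higher in TEM YFP− than in naïve YFP− cells (log2 difference 0.98, SE 0.35, adjusted p = 0.0359 in limma). The adjusted p of that difference ranged from 0.0124 to 0.742 over 24 alternatives, and the call was lost without naïve YFP− replicate 1 (0.134) or 3 (0.0941) or TEM YFP− replicate 1 (0.0754) or 3 (0.121). Between the TEM fractions the log2 difference was −0.58 (SE 0.35, adjusted p = 0.491 in limma), although the libraries did not overlap.

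Taken per kilobase of exon within each library, Cd79b over Cd79a set each TEM group apart from the other and from the naïve libraries, whose own ranges overlapped. The ratio was 0.617, 0.588 and 0.444 in naïve YFP− replicates 1, 2 and 3, and 0.420, 0.428 and 0.498 in naïve YFP+. It was 7.55, 5.19 and 11.3 in TEM YFP− and 1.02, 2.34 and 1.00 in TEM YFP+ libraries. Cd79a was therefore the more abundant of the pair in all 6 naïve libraries and Cd79b in all 3 TEM YFP− libraries. In TEM YFP+ cells the ratio was near 1 in replicates 1 and 3 and higher in replicate 2.

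**Figure D1:**
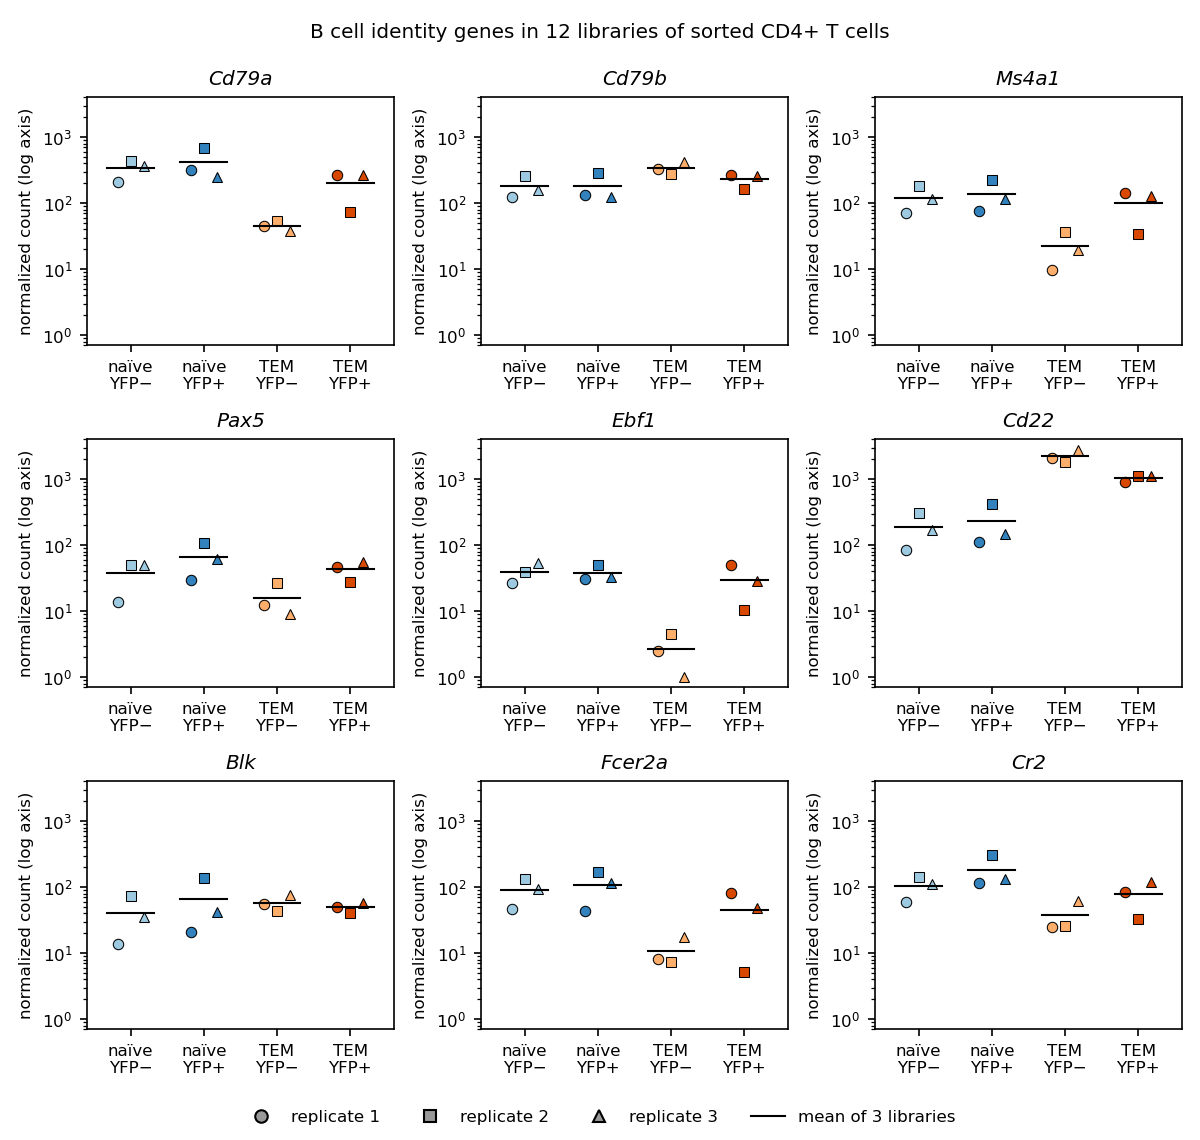
Normalized counts (log axis) of the 9 B cell identity genes in the 4 groups, with 1 point per library, its shape giving the replicate number, and a line at the mean of the 3 libraries. In TEM YFP− cells Ebf1 lies between 1.02 and 4.45 and Cd79a between 37.7 and 54.1, while Cd22 lies between 1842 and 2763.

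The lineage transcription factors were low in number of reads. Ebf1 (Entrez 13591, chromosome 11 from 44618100 to 45008096) had 26.5, 39.3 and 53.0 normalized counts in naïve YFP− libraries and 30.9, 50.2 and 32.6 in naïve YFP+ libraries. TEM YFP− libraries had 2.46, 4.45 and 1.02, from 3, 6 and 1 reads. TEM YFP+ libraries had 50.6, 10.4 and 28.5. All 3 TEM YFP− libraries lay below the other 9. Ebf1 rose in TEM YFP+ against TEM YFP− cells by 2.94 (SE 0.57) on the log2 scale, with an adjusted p of 0.00696 in limma, and the call held in all 24 alternatives (adjusted p from 0.000142 to 0.0422). Over the summed reads, 90 against 10, the depth-scaled ratio was 10.6 with a 95% interval of 5.52 to 22.9 (exact Clopper-Pearson), which covers counting error only. The fall from naïve YFP− to TEM YFP− cells was 15.0-fold (log2 difference −3.54, SE 0.57, adjusted p = 0.000243 in limma).

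Pax5 (Entrez 18507, chromosome 4 from 44524748 to 44710694) had 13.8, 49.9 and 49.5 normalized counts in naïve YFP−, 29.7, 109 and 61.4 in naïve YFP+, 12.3, 26.7 and 9.17 in TEM YFP−, and 46.5, 28.0 and 56.1 in TEM YFP+ libraries. The TEM fractions did not overlap, but only by a narrow gap between 26.7 and 28.0. The log2 difference was 1.46 (SE 0.61, adjusted p = 0.225 in limma), so Pax5 did not pass the test. Nor did it pass between TEM YFP− and naïve YFP− cells (−1.12, SE 0.61, adjusted p = 0.149 in limma), where the libraries overlapped. Pax5 was called lower there in 2 of 24 alternatives, whose adjusted p ran from 0.0016 to 0.366. These were quantile normalization and the fit without naïve YFP− replicate 1 (0.0336 in limma). Mir5120, Gm12462 and 5730488B01Rik overlap Pax5 in RefSeq, and the strand setting of the counting is not given in the sources used here.

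Cd22 (Entrez 12483, chromosome 7 from 30865404 to 30880342), an inhibitory lectin of the B cell surface that binds sialic acid, had the highest count of the 9 genes in every TEM library. It was at 85.2, 309 and 172 normalized counts in naïve YFP− and at 111, 425 and 149 in naïve YFP+ libraries. TEM YFP− libraries had 2106, 1842 and 2763, and TEM YFP+ libraries 890, 1106 and 1124. The naïve libraries all lay below the TEM libraries, and the TEM YFP+ libraries all lay below the TEM YFP− libraries. Cd22 was 11.9-fold higher in TEM YFP− than in naïve YFP− cells (log2 difference 3.73, SE 0.48, adjusted p = 3.42e-05 in limma). In YFP+ cells it was 4.55-fold higher in TEM than in naïve libraries (log2 difference 2.42, SE 0.48, adjusted p = 0.00135 in limma). Both calls held in all 24 alternatives. Between the TEM fractions the log2 difference was −1.09 (SE 0.48, adjusted p = 0.259 in limma), with adjusted p from 0.00513, in a fit of those 6 libraries alone, to 0.565 over 24 alternatives.

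Set against Cd79a within the same library, Cd22 stood far from its naïve level. Cd22 over Cd79a, per kilobase of exon, ran from 0.119 to 0.202 in naïve YFP− and from 0.101 to 0.179 in naïve YFP+ libraries. It ran from 9.84 to 21.2 in TEM YFP− and from 0.971 to 4.41 in TEM YFP+ libraries. By contrast, Ms4a1 over Cd79a per kilobase stayed between 0.0514 and 0.161 across all 12 libraries, where the TEM YFP+ range (0.111 to 0.126) lay above both naïve ranges and inside the TEM YFP− range.

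**Figure D2:**
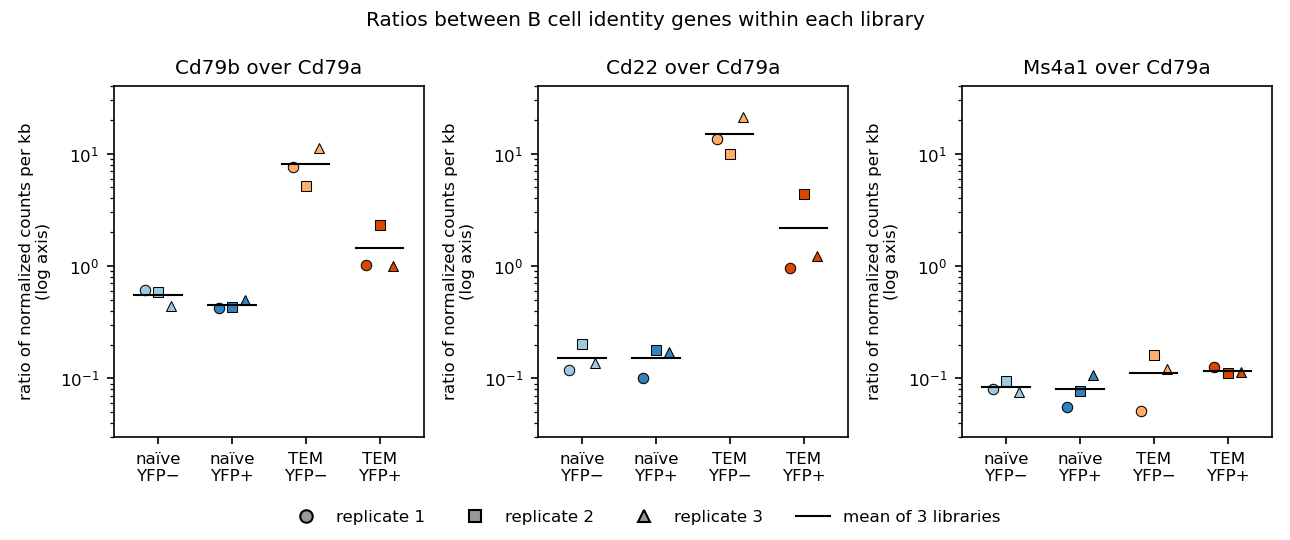
Ratios of normalized counts per kilobase of exon (log axis) within each library for 3 pairs of genes, with 1 point per library and a line at the mean of the 3 libraries of a group. Cd79b over Cd79a and Cd22 over Cd79a are highest in the 3 TEM YFP− libraries (5.19 to 11.3 and 9.84 to 21.2), while Ms4a1 over Cd79a lies between 0.0514 and 0.161 in all groups.

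Ms4a1 (Entrez 12482, chromosome 19 from 11249679 to 11266149) encodes CD20. It had 70.3, 179 and 115 normalized counts in naïve YFP−, 75.4, 225 and 115 in naïve YFP+, 9.84, 37.1 and 19.4 in TEM YFP−, and 142, 34.2 and 128 in TEM YFP+ libraries. TEM YFP+ replicate 2 fell inside the range of the TEM YFP− libraries, and the other TEM YFP+ libraries were above it. The TEM difference of 2.09 (SE 0.63) on the log2 scale missed the threshold (adjusted p = 0.0710 in limma, with a range of 0.000781 to 0.263 over 24 alternatives, 4 of which called it). From naïve YFP− to TEM YFP− cells Ms4a1 fell by 2.49 (SE 0.63, adjusted p = 0.00531 in limma), a 5.51-fold difference without overlap.

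Fcer2a (Entrez 14128, chromosome 8 from 3680280 to 3694174), the low-affinity IgE receptor CD23 of mature follicular B cells, had 47.2, 135 and 94.5 normalized counts in naïve YFP−, 43.3, 169 and 116 in naïve YFP+, 8.20, 7.41 and 17.3 in TEM YFP−, and 82.9, 5.18 and 47.5 in TEM YFP+ libraries. TEM YFP+ replicate 2 was the lowest of all 12 libraries for this gene. The TEM difference was 1.38 (SE 0.84, adjusted p = 0.490 in limma), and without that library it was 2.51 (adjusted p = 0.0351 in limma, from a range of 0.0351 to 0.882). Fcer2a fell from naïve YFP− to TEM YFP− cells by 2.93 (SE 0.84, adjusted p = 0.0116 in limma), 8.39-fold.

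Cr2 (Entrez 12902, chromosome 1 from 195136811 to 195176880), the complement receptor CD21, had 58.7, 142 and 112 normalized counts in naïve YFP−, 114, 307 and 134 in naïve YFP+, 24.6, 25.9 and 61.1 in TEM YFP−, and 85.9, 33.1 and 120 in TEM YFP+ libraries. The fractions overlapped in each comparison but TEM YFP− with naïve YFP+. Cr2 was 2.80-fold lower in TEM YFP− than in naïve YFP− cells (log2 difference −1.50, SE 0.55, adjusted p = 0.0395 in limma). That call was lost without naïve YFP− replicate 2 (0.130) or 3 (0.101) and without TEM YFP− replicate 1 (0.124) or 2 (0.120). The TEM difference was 1.02 (SE 0.55, adjusted p = 0.414 in limma).

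Blk (Entrez 12143, chromosome 14 from 63372837 to 63417187), a Src family kinase of B cells, passed in no comparison. It had 13.8, 73.2 and 35.7 normalized counts in naïve YFP−, 21.0, 137 and 42.8 in naïve YFP+, 55.0, 43.0 and 75.4 in TEM YFP−, and 50.6, 40.4 and 58.0 in TEM YFP+ libraries. The 4 groups overlapped throughout. RefSeq places other genes over Ms4a1 (4930526L06Rik), Fcer2a (Trappc5), Cr2 (Gm32313) and Blk (Gm36165), and reads shared with them cannot be told apart here.

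Across the 9 genes, 2 rose in TEM YFP+ against TEM YFP− cells (Cd79a and Ebf1), 0 fell and 7 did not pass. In the same comparison 2.3% of all tested genes were higher and 4.67% lower. The median log2 difference was 1.38 for the 9 genes and −0.01 for all tested genes, and 6 of the 9 were above 0. The libraries of 5 of the 9 genes did not overlap (3 higher in YFP+ and 2, Cd22 and Cd79b, lower), against 25.0% of all tested genes. An exact permutation test of 3 against 3 libraries cannot go below a two-sided p of 0.1. Without TEM YFP+ replicate 2, 4 of the 9 rose (Cd79a, Ebf1, Ms4a1 and Fcer2a). Ebf1 was the only one called without TEM YFP+ replicate 1 or 3, any 1 TEM YFP− library or naïve YFP− replicate 3. Over all tested genes, 359 rose with all libraries, 394 without TEM YFP+ replicate 2, 189 without replicate 1 and 175 without replicate 3. The numbers were 236, 232 and 216 without TEM YFP− replicates 1, 2 and 3, and 333 without naïve YFP− replicate 3. In bulk RNA, fewer cells of a type and less RNA per cell cannot be told apart.

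Between the naïve fractions, 0 of 9 genes passed in limma, edgeR or DESeq2, and in limma 0 had a p of 0.05 or less before adjustment. Log2 differences ran from −0.04 for Ebf1 to 0.82 for Pax5, all with an adjusted p of 1 in limma, and no gene was without overlap. Over all tested genes, 0.00642% were higher in naïve YFP+ cells, 0.0% lower, and 5.38% without overlap. The median of the 9 genes was 0.21 with all libraries and −0.25 without naïve YFP+ replicate 2, and 7 of the 9 changed sign when 1 library was left out. For these 7 genes the order of the naïve fractions rested on single libraries, whereas Pax5 and Cr2 stayed above 0 in every such fit.

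The difference between the YFP effects in TEM and in naïve cells was tested as an interaction, and 0 of 9 genes passed in limma, where 0.828% of all tested genes were higher and 2.73% lower. Ebf1 came nearest, with a difference of effects of 2.98 (SE 0.81, adjusted p = 0.0727 in limma). It passed in 4 of 23 alternatives (adjusted p from 0.00859 to 0.198), among them the fit without TEM YFP+ replicate 2 (0.0214), in which Cd79a also passed (0.0495). With all libraries, Cd79a had a difference of 1.67 (SE 0.71, adjusted p = 0.357 in limma). Unadjusted p was 0.05 or less for 3 of the 9.

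Between TEM YFP− and naïve YFP− cells, 2 of 9 genes rose (Cd22 and Cd79b) and 5 fell (Ebf1, Fcer2a, Cd79a, Ms4a1 and Cr2), whereas Pax5 and Blk did not pass. Among all tested genes 29.9% were higher and 19.9% lower, so calls were common in this comparison. The median log2 difference was −1.50 for the 9 genes against 0.05 for all tested genes. The libraries of 6 of the 9 did not overlap, beside 59.0% of all tested genes. Quantile normalization lowered the median of all genes by 0.25 and the share of calls that were higher from 60.0% to 37.7%. Under it the log2 difference of Cd79b was 0.13 (adjusted p = 0.742 in limma), and the 5 genes that fell still fell. Pax5 was then called lower too (−2.48, adjusted p = 0.0016 in limma).

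Between TEM YFP+ and naïve YFP+ cells, Cd22 was the only member called, and it was higher. Here 24.7% of all tested genes were higher and 16.7% lower, and 48.7% were without overlap, against 1 of the 9. Cd79a (−1.14, SE 0.50, adjusted p = 0.0900 in limma), Cr2 (−1.24, SE 0.55, adjusted p = 0.0919) and Fcer2a (−1.71, SE 0.84, adjusted p = 0.125) lay below 0 without passing. Without TEM YFP+ replicate 1, Fcer2a was called lower (adjusted p = 0.0394 in limma, from a range of 0.0176 to 0.496). Under quantile normalization, which lowered the median of all genes by 0.17 and the share of calls that were higher from 59.6% to 39.8%, 5 members were called lower (Cd79a, Pax5, Ebf1, Fcer2a and Cr2). These comparisons share libraries (the TEM YFP− libraries, for example, enter the difference between the TEM fractions and that between the YFP− fractions), so they are not independent of each other.

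**Figure D3:**
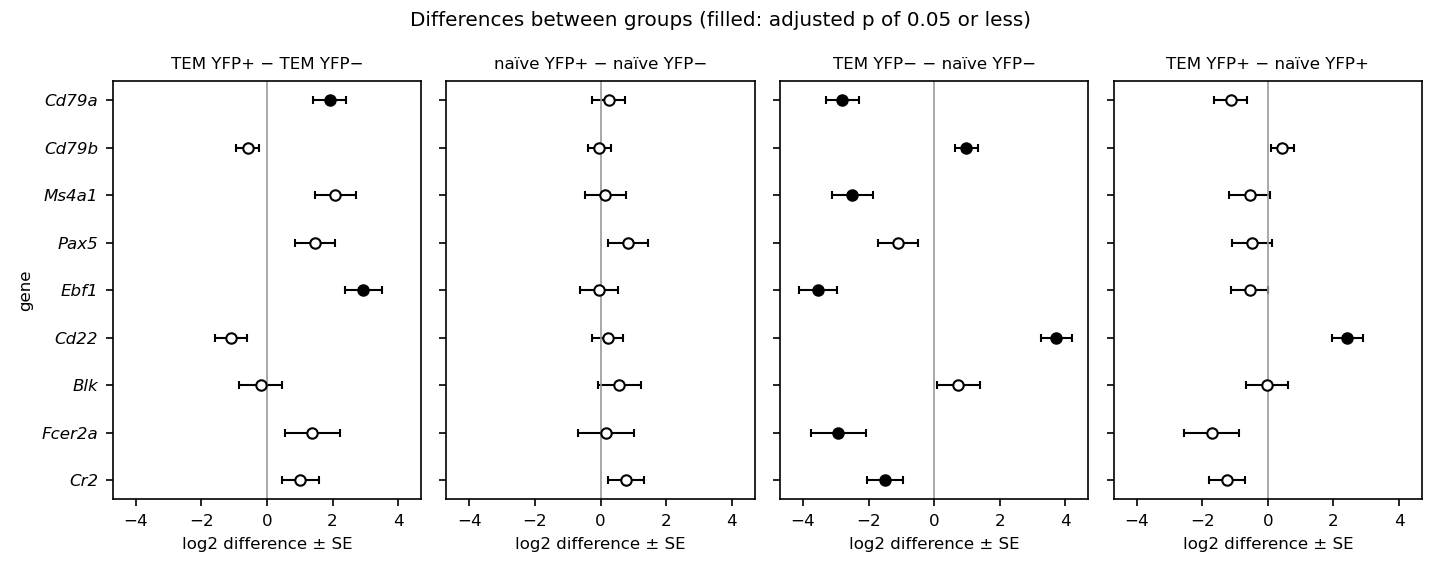
Log2 differences of the 9 genes with their standard errors (limma, 12 libraries) in the 4 comparisons, filled where the adjusted p over all tested genes is 0.05 or less. Cd79a and Ebf1 are filled between the TEM fractions, none between the naïve fractions, 7 between TEM YFP− and naïve YFP− cells, and Cd22 between TEM YFP+ and naïve YFP+ cells.

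Ordered by group means, Cd79a, Ms4a1, Fcer2a and Cr2 ran from naïve YFP+ through naïve YFP− and TEM YFP+ to TEM YFP−. Neighbours in that order differed for Cd79a, between the TEM fractions, and for none of the other 3 genes. Ebf1 ran from naïve YFP− (39.6 ± 13.3, SD, n = 3) and naïve YFP+ (37.9 ± 10.7) through TEM YFP+ (29.8 ± 20.1) to TEM YFP− (2.64 ± 1.72), and only the last step passed. Pax5 had TEM YFP− lowest, and no neighbours differed. Cd22 and Cd79b ran the other way, from TEM YFP− through TEM YFP+ to the naïve fractions. For Cd22 the step from TEM YFP+ to naïve YFP+ passed, and for Cd79b no step did.

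Levels of the members relative to each other also changed with the group. On the scale of mean normalized counts per kilobase of exon, naïve YFP− cells had Cd79a at 231, Cd79b at 125, Cd22 at 37.4 and Ebf1 at 4.06. TEM YFP− cells had Cd22 at 444, Cd79b at 240, Cd79a at 31.3 and Ebf1 at 0.271. TEM YFP+ cells had Cd22 at 206, Cd79b at 161, Cd79a at 138 and Ebf1 at 3.06. Cd79a was thus first in naïve YFP− cells and Cd22 in both TEM fractions.

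Among genes outside the members, those whose log2 level was most like the mean of the 9 over the 12 libraries, by Pearson correlation, included Scd1 (0.871) and Fcmr (0.847), followed by Ddx19b, Slfn8, Hdhd5, Fv1, Trip11, Slc31a2 and Mov10 (0.847 to 0.789). The mean blends unlike members. Cd79a correlated at 0.952 with Ebf1 and 0.940 with Ms4a1, but at −0.707 with Cd22 and −0.397 with Cd79b. Cd22 correlated at 0.845 with Cd79b and −0.725 with Ebf1. These values describe 12 libraries that fall into 4 groups and carry no test.

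Among other genes of the B lineage, falls were more common than rises. Of 20 listed, 1 rose in TEM YFP+ against TEM YFP− cells (Cd72) and 10 fell (Bcl11a, H2-Ob, Blnk, Cd180, Ly86, Cd40, Siglecg, Spib, Tnfrsf13b and Fcrla), with a median of −0.60. Siglecg, an inhibitory lectin related to CD22, had 982, 760 and 1685 normalized counts in TEM YFP− and 59.6, 40.4 and 87.4 in TEM YFP+ libraries. Bcl11a, a transcription factor that plasmacytoid dendritic cells also use, had 1536, 1129 and 2812 against 144, 73.5 and 102, and Cd180 had 622, 451 and 1288 against 57.6, 30.0 and 103. Between TEM YFP− and naïve YFP− cells, 14 of the 20 rose and 1 fell, beside 29.9% and 19.9% of all tested genes. Between the TEM fractions, 2.3% of all tested genes rose in YFP+ cells and 4.67% fell.

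Of 15 genes of B cell receptor signalling, 0 rose, 9 fell and 6 did not pass in TEM YFP+ against TEM YFP− cells, with a median of −0.99. Among all tested genes 2.3% rose and 4.67% fell in this comparison, with a median of −0.01. Syk, the kinase that binds the phosphorylated CD79 chains and that myeloid cells also use, had 3433, 1843 and 4586 normalized counts in TEM YFP− and 602, 233 and 532 in TEM YFP+ libraries. Btk had 545, 411 and 818 against 74.8, 55.9 and 83.6, and the inhibitory Fc receptor gene Fcgr2b had 572, 335 and 739 against 50.6, 32.1 and 78.9. These 3 genes, named for the largest TEM differences, were higher in the TEM fraction with the higher mean of Cd22 and the lower mean of Cd79a. Cd22 itself did not pass between the TEM fractions. From naïve YFP− to TEM YFP− cells, 11 of the 15 rose and 1 fell, beside 29.9% and 19.9% of all tested genes.

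Immunoglobulin constant genes showed few calls. Of 10 tested, 1 (Iglc3) fell in TEM YFP+ against TEM YFP− cells and 0 rose, and 2 (Iglc3 and Ighg3) rose from naïve YFP− to TEM YFP− cells. Of all tested genes, 4.67% fell in the first comparison and 29.9% rose in the second. Igkc, the kappa light chain, had 218, 1009 and 270 normalized counts in naïve YFP−, 260, 4440 and 299 in naïve YFP+, 652, 2368 and 726 in TEM YFP−, and 1620, 1905 and 1591 in TEM YFP+ libraries. Replicate 2 was the highest library in each of the 4 groups. Its TEM difference was 0.71 (adjusted p = 0.823 in limma).

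Markers of other cells moved with the TEM groups. Between the TEM fractions, 2.3% of all tested genes were higher in YFP+ cells and 4.67% lower. Of 8 conventional dendritic cell markers, 7 fell in TEM YFP+ against TEM YFP− cells, and their sum ran from 13464 to 29757 normalized counts in TEM YFP− libraries, from 875 to 2321 in TEM YFP+, from 111 to 244 in naïve YFP− and from 187 to 1058 in naïve YFP+ libraries. Of 12 plasmacytoid dendritic cell markers, 8 fell, with sums from 22138 to 30778 in TEM YFP−, 14642 to 15100 in TEM YFP+, 11719 to 12311 in naïve YFP− and 11543 to 12920 in naïve YFP+ libraries, and Klk1 was at 0 in every naïve YFP− library. Siglech, which defines that cell type, had 3367, 1412 and 3263 normalized counts in TEM YFP− and 118, 26.9 and 55.1 in TEM YFP+ libraries. Most of the plasmacytoid sum in naïve YFP− cells came from Pacsin1, Irf7 and Bst2 (means of 6099, 3224 and 2158), while the mean of Siglech there was 0.384. The sums of both lists were highest in TEM YFP− libraries, the group with the highest means of Cd22 and Cd79b and the lowest of Cd79a, Ebf1 and Ms4a1, but not every marker followed its sum (Ccr9 and Pacsin1, for example, did not). Their part in the levels of the 9 members was not tested.

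Of 10 macrophage and neutrophil markers, 3 fell between the TEM fractions (Cd68, Adgre1 and Itgam), with sums from 7592 to 14611 in TEM YFP−, 2026 to 3959 in TEM YFP+, 417 to 1100 in naïve YFP− and 570 to 4176 in naïve YFP+ libraries. Of 6 NK cell markers, 4 rose (Klrb1c, Ncr1, Prf1 and Klre1), with sums from 795 to 1029 in TEM YFP− and 2283 to 4012 in TEM YFP+ libraries, and Ncr1 was at 0 in every TEM YFP− and naïve YFP− library. The NK marker sums ran from 2945 to 4271 in naïve YFP− and from 2990 to 4540 in naïve YFP+ libraries. Prf1 was the largest part of these naïve sums (means of 3413 in naïve YFP− and 3465 in naïve YFP+ cells). Both CD8 markers fell, with sums from 685 to 1490 in TEM YFP− and 187 to 373 in TEM YFP+ libraries. Of all tested genes, 2.3% rose and 4.67% fell between the TEM fractions. The 4 erythroid markers (sums from 88.6 to 1301 and from 783 to 3152) and the 8 T cell markers did not pass. The part of these cell types in the values of the 9 genes was not tested either.

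**Figure D4:**
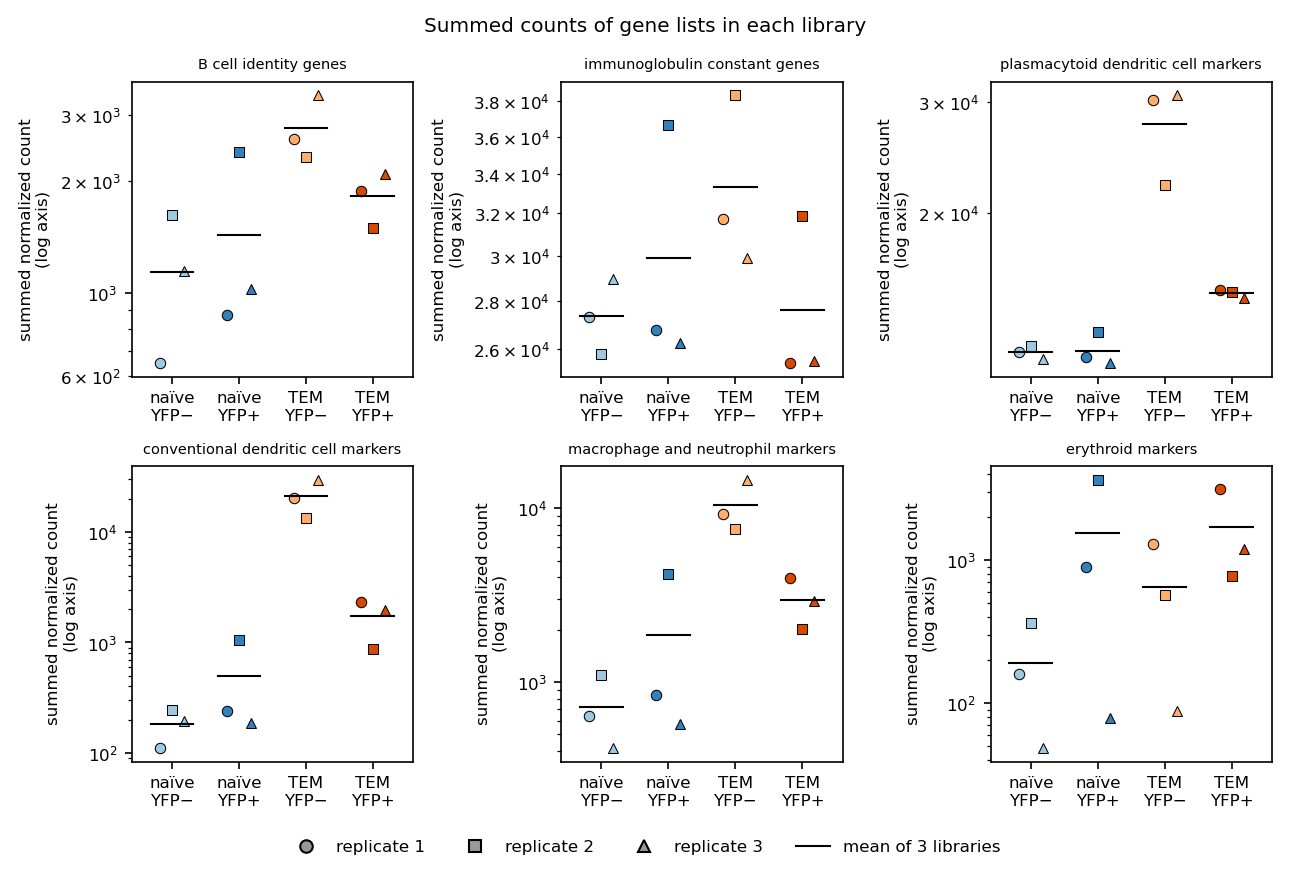
Summed normalized counts (log axis) of 6 gene lists in each library, with 1 point per library and a line at the mean of the 3 libraries of a group. Conventional dendritic cell markers sum to between 13464 and 29757 in TEM YFP− libraries and to 2321 or less in the others, while the sum of the B cell identity genes, of which Cd22 is the largest part in TEM cells, lies between 648 and 3403.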

How the data were processed

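Naïve and TEM CD4+ T cells, YFP+ and YFP−, were sorted from spleens of Gr/fr mice, and stranded total RNA libraries were sequenced. According to the study's methods, DRAGEN mapped the reads to mm10, Rsubread counted them per gene and DESeq2 compared the groups. The signal values deposited by the authors are counts over the DESeq2 size factor of each library. Annotation, strand setting and versions are not given in the sources used here. Multiplying by the size factor returned whole reads for 100% of values (within 0.001 reads), and 0 columns were left unused.

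Genes were named by Entrez identifier from RefSeq (GRCm38.p6: 16749 named, 774 not), and levels per kilobase used the union of GENCODE M21 exons. Testing required 5 or more normalized counts in 3 or more libraries. Log2(normalized count + 1) of all 12 libraries was fitted with limma 3.58.1 (R 4.3.3; 4 group means, variance trend, 8 residual degrees of freedom), and p was adjusted over all tested genes by the Benjamini-Hochberg method, with calls at 0.05 or below. Fold changes are ratios of group means. The fit was checked on simulated data. The counts were recovered as whole reads for edgeR 4.0.16 and DESeq2 1.42.0, used as alternatives. Each library was left out in turn. Further alternatives changed the prior count (0.1 or 5), the filter (none, or a mean of 10 or more), the scaling (TMM or quantile), the variance trend (none), the libraries fitted (only the 6 being compared) and the fold change threshold, or added the replicate number as a block.

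Libraries with the same number deviated together (correlation over genes of deviations from the group means) between the TEM fractions (0.180, 0.338 and 0.356), the naïve fractions (0.306, 0.491 and 0.360) and the YFP− fractions (0.168, 0.137 and 0.232), but not between the YFP+ fractions (0.204, −0.02 and 0.056), so the numbers were taken to pair libraries in the first 3 comparisons. The main fit and its shares of all tested genes did not use this pairing, which entered as the replicate block in alternatives. With that block in limma, calls over all tested genes between the TEM fractions went from 359 higher and 728 lower to 814 higher and 1055 lower. The 9 members and all lists were chosen with earlier results of these data known. Genes named are the 9 members, Cd4, Cd3e, Cd44, Siglech and Csf2, the called genes of a list, the 3 genes of each list with the largest TEM difference among those averaging 50 normalized counts or more, and the 10 genes most like the mean of the members. Some genes that this rule names are not reported here. Igkc was named in addition, after its values were seen.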

Additional observations from a re-analysis of the deposited data

How the results depend on the processing

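The replicate block in limma changed 0 of 45 calls of single members in the paired or unpaired comparisons, and its counts were 2 between the TEM fractions, 0 between the naïve fractions, 0 for the interaction, 7 between the YFP− fractions and 1 between the YFP+ fractions, as without it. Of the 9 members, 2 were called between the TEM fractions, and this became 1 without a variance trend, 1 with a prior count of 0.1 and 1 when calls also had to reach 2 on the log2 scale, became 3 with DESeq2, with and without the replicate block, and with quantile normalization (Ms4a1 gained), stayed at 2 in the fit of the 6 libraries with Cd22 in place of Cd79a, and ran from 1 to 4 when 1 library was left out. For the interaction, 0 became 1 with DESeq2, 1 with DESeq2 and the replicate block and 1 with quantile normalization, and ran from 0 to 2 without 1 library. Between TEM YFP+ and naïve YFP+ cells, 1 became 6 with quantile normalization and ran from 1 to 2 without 1 library. The cause of these changes was not tested.

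Some log2 differences reversed, none of them called. Quantile normalization gave 0.11 for Blk between the TEM fractions, −0.68 for Blk between the YFP− fractions and −0.20 for Cd79b between the YFP+ fractions. Between the naïve fractions Cd79b was 0.012 in DESeq2, 0.000406 with the replicate block in DESeq2 and 0.0019 in edgeR. With 1 library left out, the naïve differences ran from −0.18 to 0.54 for Cd79a, −0.43 to 0.25 for Cd79b, −0.28 to 0.51 for Ms4a1, −0.30 to 0.19 for Ebf1, −0.36 to 0.66 for Cd22, −0.14 to 1.18 for Blk and −0.25 to 0.72 for Fcer2a. Those between the YFP+ fractions ran from −0.91 to 0.10 for Ms4a1, −1.05 to 0.038 for Ebf1 and −0.63 to 0.69 for Blk, that of Blk between the TEM fractions from −0.38 to 0.015, and the interaction of Cr2 from −0.13 to 0.78. Of 1067 alternative values of single members, 997 kept their direction and their side of the threshold, 21 lost a call, 19 gained one and 30 reversed. The interaction could not be fitted on 6 libraries, since it needs all 4 groups. Low counts limit Ebf1 most, with 1 to 6 reads in each TEM YFP− library.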

Other observations

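Of the 6 plasma cell genes in the table, 0 passed between the TEM fractions, while 5 (Prdm1, Jchain, Irf4, Sdc1 and Xbp1) were higher in TEM YFP− than in naïve YFP− cells by limma. Of all tested genes, 29.9% were higher in TEM YFP− than in naïve YFP− cells. Between the TEM fractions, 2.3% of them were higher in YFP+ cells and 4.67% lower. Prdm1, a transcription factor of plasma cells that effector T cells also use, had 2853, 2234 and 1845 normalized counts in TEM YFP− and 4832, 3364 and 2874 in TEM YFP+ libraries. Jchain, which joins secreted IgA and IgM, had 3.46, 105 and 6.91 in naïve YFP−, 26.0, 723 and 25.1 in naïve YFP+, 105, 336 and 126 in TEM YFP−, and 377, 258 and 319 in TEM YFP+ libraries. Of 2 B cell precursor genes tested, 1 fell between the TEM fractions: Dntt, which adds bases at antigen receptor joints, had 449, 211 and 408 normalized counts in TEM YFP− and 33.4, 7.25 and 8.55 in TEM YFP+ libraries. Dntt was highest in naïve YFP− libraries (695, 669 and 771) and had 266, 209 and 286 in naïve YFP+ libraries.

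The gene most like each member over the 12 libraries was looked up after the values were seen, and is given here only for Cd79a, Cd79b, Cd22 and Blk. Cd79a was most like Scd1 (Pearson r = 0.981), Cd79b most like Esam (0.926), Cd22 most like Aph1b (0.995) and Blk most like Slc36a1 (0.924). These values describe libraries that fall into 4 groups and carry no test.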
